A study of Homo sapiens with 5 samples.

Results

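RNA from LNCaP cells that had received an siRNA against LSD1 was compared with RNA from LNCaP cells that had received a control siRNA, gene by gene. Members of the comparison were protein-coding genes of 300 bases or more that carried no accession marked as failed and reached 5 FPKM (fragments per kilobase of transcript, scaled to the depth of the library) in either library. This left 9253 genes of the 22931 gene symbols in the RNA table. Of these, 8897 reached 5 FPKM in both libraries, 189 in the control siRNA library alone and 167 in the LSD1 siRNA library alone. Genes just inside the limit included COX19, at 5.0056 FPKM in the control and 4.9904 after LSD1 siRNA. HSPBAP1 stood just outside it, at 4.9998 and 4.3437 FPKM.

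LNCaP is a human prostate cancer cell line that responds to androgen. The series asked what LSD1 does in androgen signalling, and held 5 samples, of which the 2 RNA libraries are compared here. Both libraries came from LNCaP at the same passage range, in medium without phenol red that held 10% charcoal-stripped serum, which is poor in steroid hormones. The labels describe 3 days of this starvation ahead of a hormone stimulus that they do not name, and do not say whether these libraries were taken before or after it. The only labelled difference is the transfected siRNA, whose sequence the labels do not give. With 1 library per group, every difference below is one between 2 libraries. It has no replicate check and no p-value, and it would include any difference between the cultures.

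LSD1, encoded by KDM1A, removes methyl groups from mono- and dimethylated lysines of histone H3 and works inside the CoREST and NuRD complexes. It is best known as a corepressor through lysine 4 of H3, and has also been described as a coactivator of androgen signalling in prostate cells. Which of the differences below are direct was not tested.

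The estimated depth was 33.0 M fragments for the control siRNA library and 25.5 M for the LSD1 siRNA library. At 5 FPKM a transcript of 2 kb then rests on about 297 and 229 fragments, and the counting error alone gives a 95% half-width of 0.25 on the log2 fold change. That half-width was 0.61 for a transcript of 0.5 kb at 5 FPKM, and 0.056 for 2 kb at 100 FPKM. All 13 luminal prostate markers were members, among them KLK3, KLK2 and TMPRSS2. Of the markers listed for basal, neuroendocrine, fibroblast and smooth muscle, immune and endothelial cells, 4 reached 5 FPKM in either library, and all 4 had a higher level after LSD1 siRNA. These were ENO2 of the neuroendocrine list (187 and 241 FPKM, log2 fold change 0.36), COL1A1 of the fibroblast list (8.77 and 11.7 FPKM, 0.38), CD68 of the immune list (0.52) and LAMB3 of the basal list (0.72). LAMB3 reached 5 FPKM in the LSD1 siRNA library alone, so its direction follows from the minimum. The rest stayed under 5 FPKM, and KRT5 and TP63 of basal cells and CHGA of neuroendocrine cells were under 0.1 FPKM in both libraries, while CD3E of T cells was listed at 0. The summed level of the 10 basal markers was 9.41 FPKM with control siRNA and 15.9 with LSD1 siRNA, of which LAMB3 made up 3.18 and 5.90, and that of the 7 neuroendocrine markers was 188 and 242 FPKM, nearly all from ENO2. The part of these markers in any result was not tested. In bulk RNA, fewer cells of a type and less RNA per cell cannot be told apart.

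The siRNA target KDM1A, which the table places on chromosome 1 from 23345941 to 23410184 (hg19), was the member with the lowest log2 fold change of all. Its level was 37.0 FPKM in the control and 6.87 FPKM after LSD1 siRNA, a log2 fold change of -2.27 on the log2(FPKM + 1) scale used throughout. The LSD1 siRNA library thus held 0.186 times the control level of the KDM1A transcript. Its paralog KDM1B, a flavin-dependent demethylase of the same family, was at 13.3 and 8.77 FPKM, a log2 fold change of -0.55.

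The other members of the LSD1 complexes differed little. The LSD1 complex list held 26 measured genes, KDM1A and its paralog KDM1B among them. Of these 26, 2 were lower and 2 higher past the lowest limit (7.69% each), and the median log2 fold change was -0.08. KDM1A and KDM1B were the 2 lower genes, so no other gene of the list was lower past that limit. HDAC1, the deacetylase shared by CoREST and NuRD, was the higher gene with the larger value, at 93.0 and 131 FPKM (log2 fold change 0.49).

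The rest of the transcriptome stayed close to the control. The median log2 fold change over all members was -0.02, the SD across genes was 0.22, and 90% of members lay between -0.37 and 0.32. Beside 2-fold and 1.5-fold, a lowest limit was used for small differences, a level (FPKM + 1) at least 25% above or 20% below the control. In all, 8145 members (88.0%) stayed within that limit and 9073 (98.1%) within 1.5-fold. Past 2-fold there were 9 higher members (0.0973% of all members) and 11 lower ones (0.119%). Past 1.5-fold there were 74 higher (0.800%) and 106 lower (1.15%), and past the lowest limit 445 higher (4.81%) and 663 lower (7.17%). Without regard to size, 4207 members (45.5%) were above 0 and 5046 (54.5%) below. These counts depend on the settings: past 2-fold they were 3 and 4, and past 1.5-fold 27 and 51, with a pseudocount of 5 FPKM. With each gene represented by its most abundant accession they were 22 and 31, and 135 and 184. The percentages given here are the background against which the counts of each gene group below are read.

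The authors' deposited table, which was made from the same 2 libraries, called at least 1 accession of 80 members (0.865%), 32 of them higher and 48 lower in the sums used here. Of members called in the authors' deposited table, 40 differed by less than 1.5-fold, while 8 of the 9 higher and 8 of the 11 lower members past 2-fold were among those called. The exceptions past 2-fold were RPL21 on the higher side and IFI27, FYTTD1 and MICOS10-NBL1 on the lower side.

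**Figure D1:**
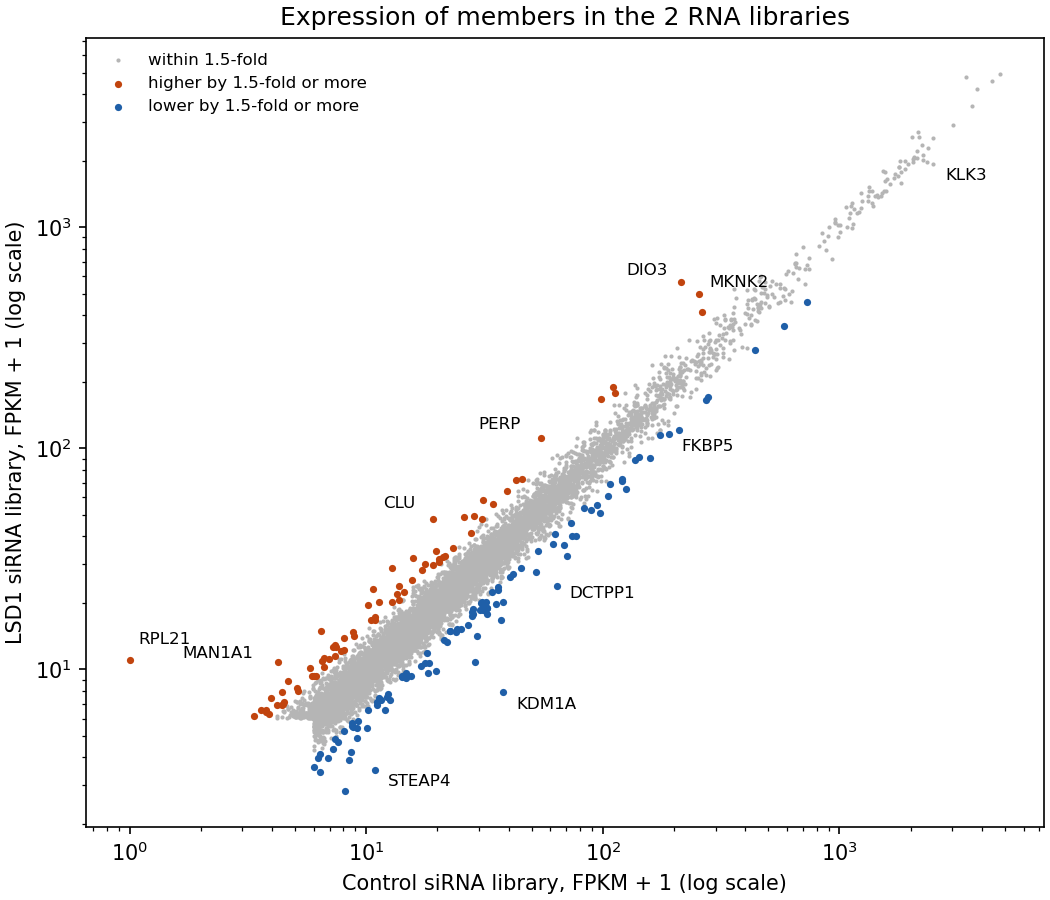
Each point is 1 of the 9253 members, with its level in the control siRNA library on the x axis and in the LSD1 siRNA library on the y axis, both as FPKM + 1 on log scales. Coloured points are the 74 members higher (orange) and the 106 lower (blue) by 1.5-fold or more; KDM1A, at 37.0 and 6.87 FPKM, lies farthest below the grey cloud, and RPL21 stands alone at the left because it was listed at 0 in the control.

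Fold changes were laid out by the mean level of both libraries. The 173 members with a mean under 5 FPKM all passed the minimum through 1 library alone, which builds a difference into them, so their shares past a fold are not compared with those of other levels. Among 2500 genes left out of the members, at 1 to 5 FPKM in the library where they were higher, 48 were higher and 33 lower by 1.5-fold, with an SD of 0.25. Between 5 and 10 FPKM the shares of members higher and lower by 1.5-fold were 0.957% and 1.00%, between 10 and 30 FPKM 0.619% and 1.09%, and between 30 and 100 FPKM 0.510% and 1.02%. The SD was 0.23 between 5 and 10 FPKM, 0.21 in both bins from 10 to 100 FPKM and 0.22 between 100 and 300 FPKM. From 5 to 300 FPKM the spread across genes thus stayed nearly the same, while the counting error falls with the level.

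The most abundant transcripts had the smallest spread, an SD of 0.14. None of the 70 members at 1000 FPKM or over was past 1.5-fold, and they spanned log2 fold changes from -0.35 for KLK3, the gene of prostate-specific antigen, to 0.48 for FTH1, the ferritin heavy chain. KLK3 was at 2474 FPKM in the control and 1941 FPKM after LSD1 siRNA. FTH1 was at 3429 and 4784 FPKM, and GDF15, a stress-induced secreted factor of the TGF-beta family, at 2156 and 2703 FPKM (0.33). The listed interval of FTH1 is shared with BEST1. The other 8 of the 10 most abundant members, RPL41, RPS27, GAPDH, RPS18, EEF1A1, RPL37A, RPS29 and RPL7A, lay between -0.06 and 0.24. In the bin from 300 to 1000 FPKM, 3 of 132 members were higher (2.27%) and 3 lower by 1.5-fold, and the SD was 0.27. DIO3 was its highest member (1.41) and DBI, the acyl-CoA-binding protein, its lowest (-0.70).

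**Figure D2:**
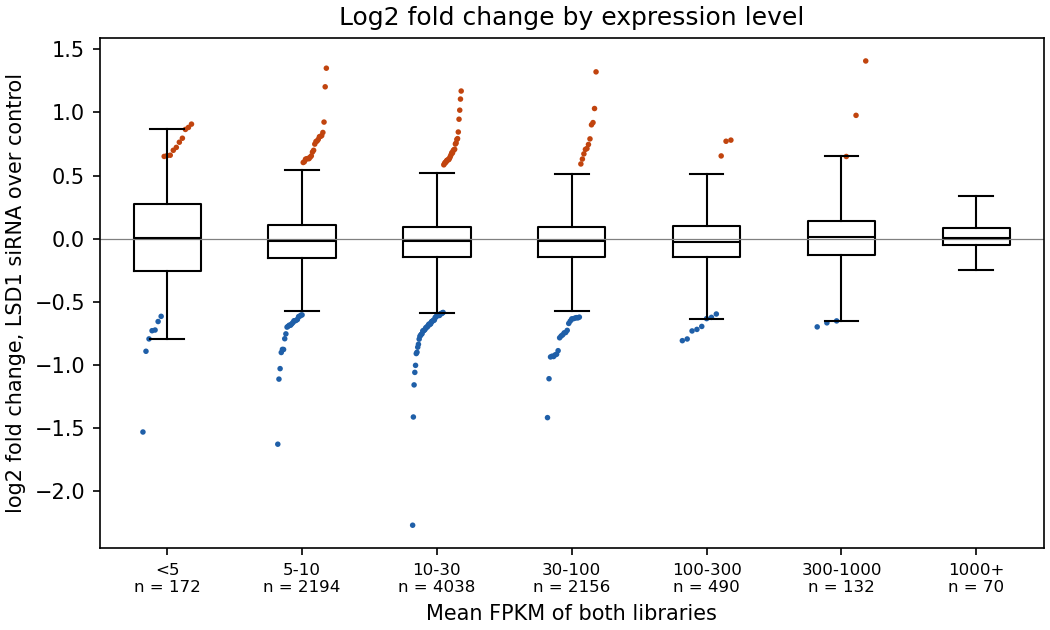
The log2 fold change of members (y axis, LSD1 siRNA over control siRNA) is drawn by mean FPKM of both libraries (x axis). Boxes span the quartiles with the median, whiskers the 1st to 99th percentile, and points are members past 1.5-fold; RPL21, at 0 in the control, is left out. The wide box under 5 FPKM holds only members that passed the minimum through 1 library; the boxes are alike from 5 to 300 FPKM and the 1000+ bin holds no point past 1.5-fold.

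The mean level of both libraries had a median of 13.5 FPKM over the 74 members higher by 1.5-fold and 21.8 FPKM over the 106 lower ones. Over all members the median level was 18.1 FPKM in the control and 17.8 FPKM after LSD1 siRNA. Among the members past 1.5-fold, 18 of the 74 and 20 of the 106 passed the minimum of 5 FPKM only through the library in which they were higher. Of the genes named below, these include MAN1A1, NDRG4, C19orf33 and LAMB3 on the higher side. STEAP4, NPPC, SPAG16 and MICOS10-NBL1 are among them on the lower side. Genomic lengths had medians of 15.5 kb for higher, 31.6 kb for lower and 28.8 kb for all members.

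The highest log2 fold changes were as follows. RPL21, which encodes a ribosomal protein, ranked first only because it was listed at 0 in the control siRNA library and at 10.00 FPKM in the other. It shares its listed interval with the pseudogene RPL21P28 and 2 small nucleolar RNAs, and RPL41, another ribosomal protein, was at 4776 FPKM in the control, so the value of RPL21 is uncertain and no fold is given. DIO3, the deiodinase that inactivates thyroid hormone, was at 213 FPKM in the control and 567 FPKM after LSD1 siRNA (log2 fold change 1.41). DIO3 was among the more abundant of the members past 1.5-fold. On the log2(FPKM + 1) scale it had the highest fold change of members measured above 0 in both libraries. MAN1A1, a Golgi mannosidase that trims N-linked glycans, was at 3.23 and 9.79 FPKM (1.35). Without the pseudocount the FPKM ratio of MAN1A1, 3.03, was larger than the 2.67 of DIO3. CLU, the secreted chaperone clusterin, was at 18.2 and 47.0 FPKM (1.32). CRYAB, a small heat shock protein, was at 5.47 and 13.9 FPKM (1.21).

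Next in order was MMP7, the protease matrilysin, at 11.8 FPKM in the control and 27.8 FPKM after LSD1 siRNA (log2 fold change 1.17). IL1RN, the antagonist of the interleukin-1 receptor, was at 9.73 and 22.1 FPKM (1.11). PERP, a desmosomal protein and p53 target, was at 53.8 and 111 FPKM (1.04), and OGFR, the opioid growth factor receptor, at 14.7 and 30.8 FPKM (1.02). These were the last of the 9 members past 2-fold. Just below that size, MKNK2, a kinase of the translation factor eIF4E, was at 254 and 501 FPKM (0.98), and PI3, the elastase inhibitor elafin, at 9.17 and 18.6 FPKM (0.95). NDRG4 (0.92), the zinc-binding metallothionein MT1G (0.92), C19orf33 (0.91) and the membrane glycoprotein GPNMB (0.90) completed the 15 highest. C19orf33 shares its listed interval with YIF1B, so its 2.95 and 6.41 FPKM may hold reads of that gene.

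On the lower side, KDM1A was followed by STEAP4, a metalloreductase known as androgen-regulated, at 9.89 FPKM in the control and 2.52 FPKM after LSD1 siRNA (log2 fold change -1.63). NPPC, the precursor of C-type natriuretic peptide, was at 7.13 and 1.81 FPKM (-1.53). DCTPP1, a pyrophosphatase that removes dCTP and related nucleotides, was at 62.9 and 22.9 FPKM (-1.42). IFI27, an interferon-induced mitochondrial protein, was at 27.8 and 9.81 FPKM (-1.41). Among these 5, only IFI27 was not called in the authors' deposited table, where its q-value was 1.

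The remaining 10 of the 15 lowest spanned -1.16 to -0.92. FYTTD1, an mRNA export adaptor, was at 36.3 and 15.7 FPKM (-1.16) and shares its interval with RUBCN. SPAG16, a protein of the sperm axoneme (-1.11), and ADIPOR1, an adiponectin receptor (-1.11), were lower to the same degree from control levels of 7.46 and 69.6 FPKM. B4GALT5, a galactosyltransferase of glycolipid synthesis, was at 28.4 and 13.1 FPKM (-1.06). MICOS10-NBL1 is a readthrough transcript of 2 genes and its value of -1.03 is uncertain. OTULINL (18.7 and 8.82 FPKM), PYURF (-0.94), AP2B1 of the clathrin adaptor AP-2 (-0.93), NCAPD3 of condensin II (-0.93) and mitochondrial arginase ARG2 (-0.92) closed the group. NCAPD3 was the most abundant of these 15, at 124 and 64.4 FPKM. ARG2 shares its listed interval with VTI1B, so its 51.1 and 26.5 FPKM may hold reads of that gene.

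**Figure D3:**
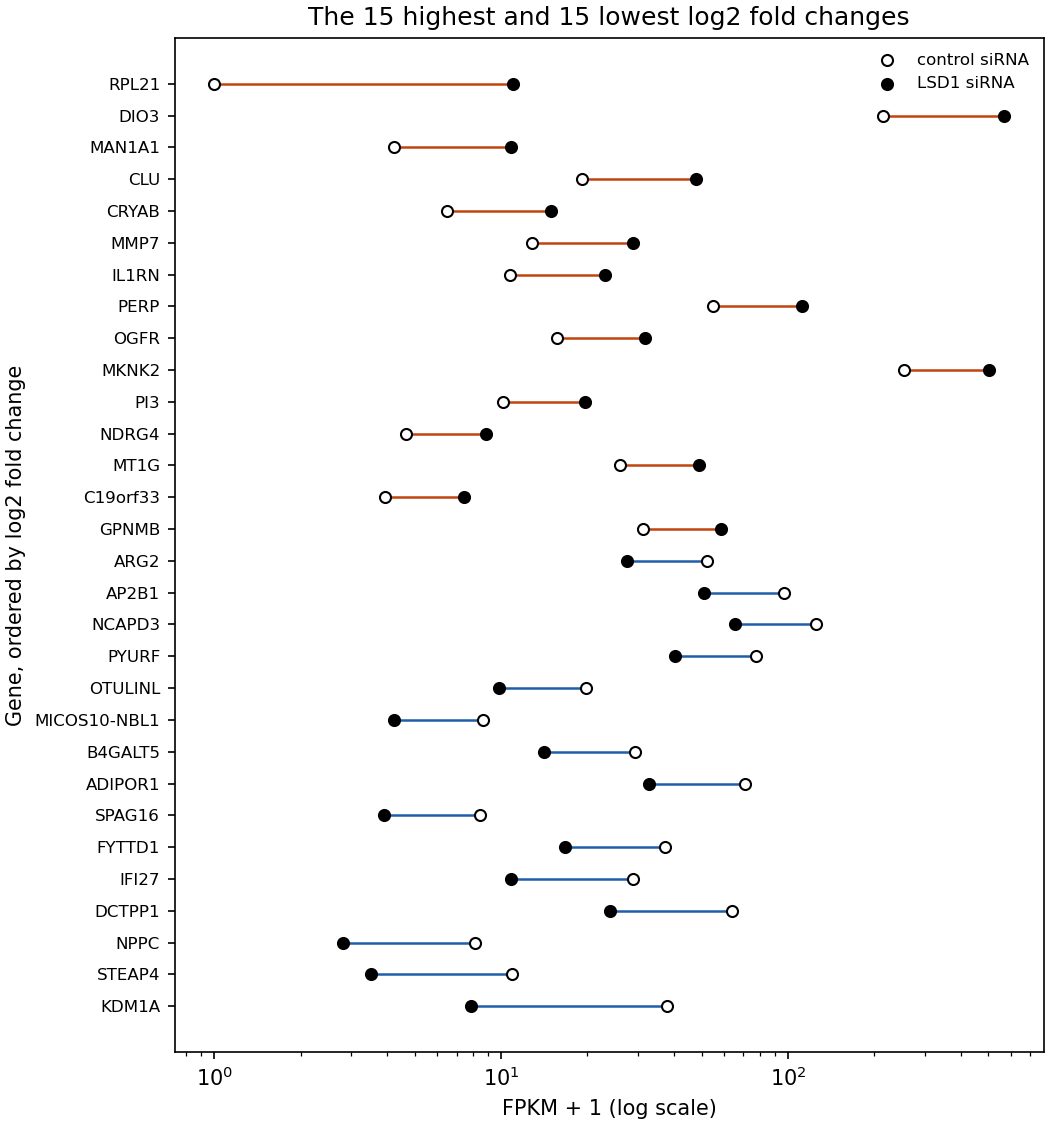
The 15 members with the highest and the 15 with the lowest log2 fold change are drawn in order of that value, with the control siRNA library as open and the LSD1 siRNA library as filled circles (x axis, FPKM + 1, log scale). KDM1A spans the widest distance on the lower side (37.0 to 6.87 FPKM), and the filled circle of DIO3 (567 FPKM) lies farthest to the right.

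By function, 43 gene lists were described, of which 41 had 10 or more members. Androgen-induced genes had the lowest median of the 41, -0.35, with 45 of 50 below 0, 29 lower past the lowest limit, 12 lower by 1.5-fold and none higher past the lowest limit. STEAP4, ARG2, CENPN and ERRFI1 had the lowest values, and ARG2 shares its listed interval with VTI1B. STEAP4 and NNMT (6.61 and 3.68 FPKM, -0.70), both counted as lower by 1.5-fold, reached 5 FPKM in the control alone. Their direction thus follows from the minimum. CENPN, a centromere protein, was at 157 FPKM in the control and 89.2 FPKM after LSD1 siRNA (log2 fold change -0.81). ERRFI1, an inhibitor of the EGF receptor, was at 104 and 59.9 FPKM (-0.78). The 13 androgen signalling and lineage factors had a median of -0.29, with 6 lower and 1 higher past the lowest limit. The higher gene was ELF3, an epithelial ETS factor, at 47.3 and 70.8 FPKM (0.57). The median of these factors was -0.06 when no minimum level was applied. Of 20 genes reported as lowered by androgen, 5 were higher and 4 lower past the lowest limit, with a median of 0.05. SERPINI1 (4.39 and 5.99 FPKM, 0.37), among the higher genes, reached 5 FPKM in the LSD1 siRNA library alone, so its direction follows from the minimum.

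Ribosome biogenesis genes, which build ribosomes in the nucleolus, came next. Of 47 measured, 45 were below 0, 19 were lower past the lowest limit, 2 by 1.5-fold and none higher past the lowest limit, and the median was -0.30. NOP16, a nucleolar protein and known MYC target, was at 16.7 FPKM in the control and 9.66 FPKM after LSD1 siRNA (log2 fold change -0.74). NOP2, a methyltransferase of ribosomal RNA, was at 20.3 and 12.6 FPKM (-0.64). NOP14 (-0.53) and RRS1 (-0.51) had the next lowest values. NOP10 (0.10) and NOLC1 (0.08) were the 2 above 0. All 4 RNA polymerase I subunits in the list were below 0, with a median of -0.29, and 7 of 8 core proteins of the box C/D and H/ACA particles were below 0, with a median of -0.31. Both of these subsets were picked after their values had been seen.

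**Figure D4:**
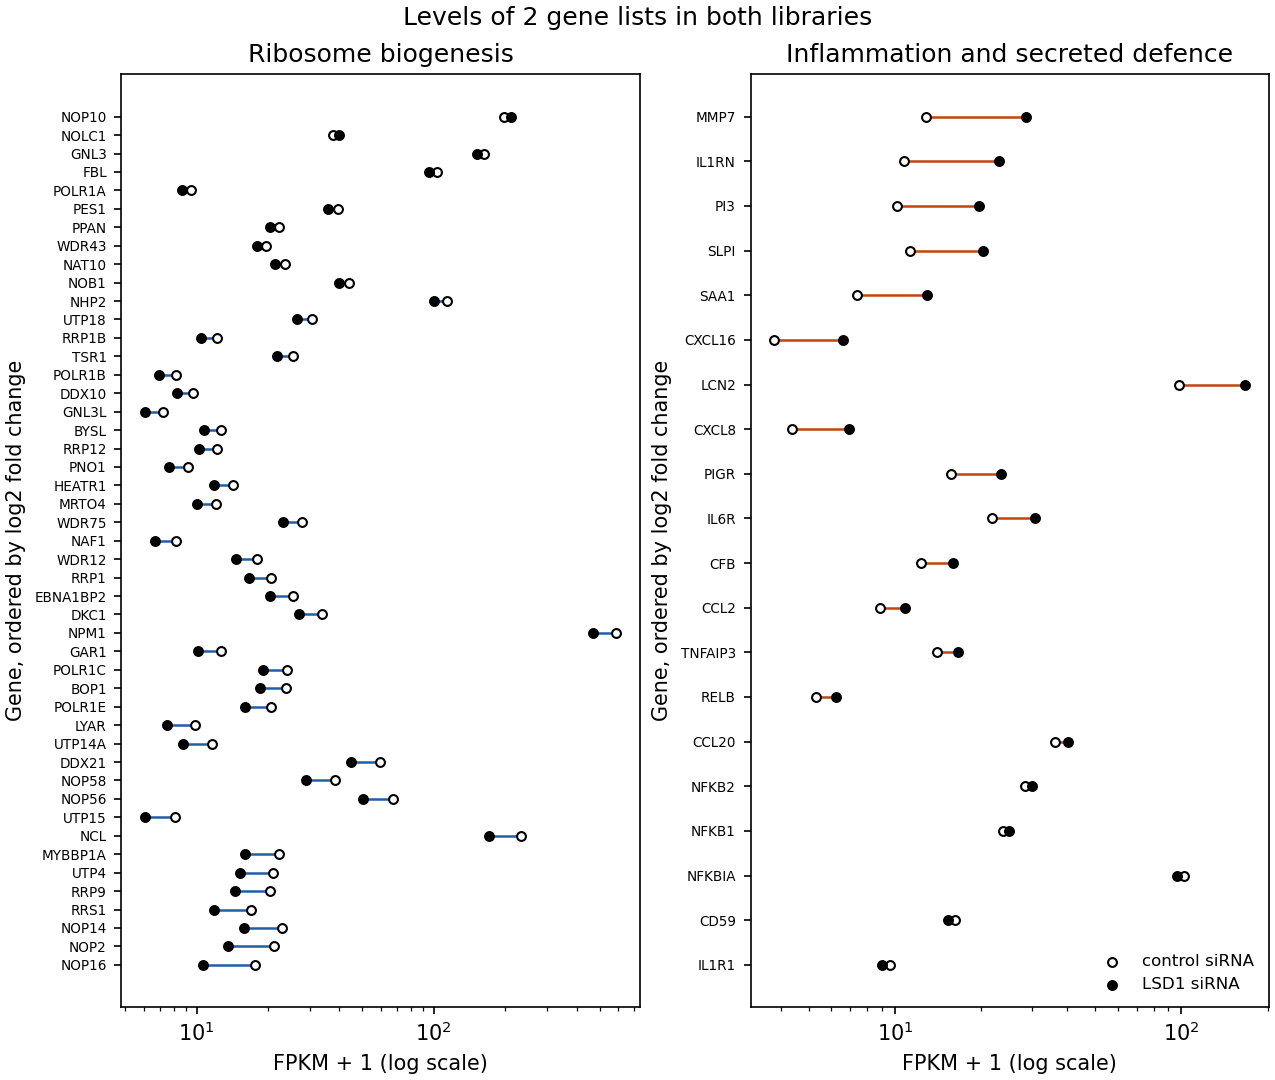
Levels of the 47 ribosome biogenesis genes (left) and the 20 inflammation and secreted defence genes (right) are drawn in both libraries (x axis, FPKM + 1, log scale; open circles control siRNA, filled circles LSD1 siRNA), ordered by log2 fold change. On the left, 45 genes have the filled circle to the left of the open one; on the right, 17 genes have it to the right.

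MYC, the transcription factor that drives growth genes, was at 93.5 FPKM in the control and 63.5 FPKM after LSD1 siRNA (log2 fold change -0.55). Of 34 genes of the MYC network and of nucleotide and polyamine metabolism, MYC included, 29 were below 0, 11 were lower and none higher past the lowest limit, and the median was -0.20. DCTPP1 had the lowest value (-1.42). ATAD2, a bromodomain protein that works with MYC, was at 32.9 and 21.5 FPKM (-0.59). PRPS2, which makes the ribose phosphate donor of purine synthesis, was at 27.2 and 17.8 FPKM (-0.58). The 4 polyamine synthesis genes were all below 0, with a median of -0.35, and were set apart after their values had been seen.

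DNA replication genes were below 0 in 35 of 37 cases, with a median of -0.16. Of these, 8 were lower and none higher past the lowest limit. CDC6, which loads the replicative helicase, was at 6.78 FPKM in the control and 4.24 FPKM after LSD1 siRNA (log2 fold change -0.57). MCM5, a subunit of that helicase, was at 9.14 and 5.86 FPKM (-0.56), ORC5 of the origin recognition complex at 27.8 and 19.8 FPKM (-0.47), and MCM6 at 10.6 and 7.61 FPKM (-0.44). CDC6 reached 5 FPKM in the control alone, so its direction follows from the minimum. All 6 helicase subunits MCM2 to MCM7, a subset chosen after seeing their values, were below 0, with a median of -0.40. Mitosis genes had a median of -0.05, with 2 of 20 lower past the lowest limit (10.0%, against 7.17% of all members), SPC25 (-0.41) and MAD2L1 (-0.39).

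Promoter sequences from RefSeq (GRCh38.p14, 250 bases before to 50 after the start) were matched for 7724 members (83.5%). The E-box CACGTG, the site that MYC binds with its partner MAX and which reads the same on both strands, lay in 16 of 39 ribosome biogenesis promoters. That is 41.0% (95% Wilson interval 27.1 to 56.6%, for counting error only), against 11.1% of the promoters of all members. In the MYC network and nucleotide list 10 of 29 promoters held it (34.5%, 19.9 to 52.7%). The E2F motif GGCGGGAA, searched on both strands, lay in 9 of 32 DNA replication promoters (28.1%, 15.6 to 45.4%), against 5.35%. One window is shown for each of 4 genes, UTP4 and UTP14A of the small-subunit processome that matures ribosomal RNA, and MCM3 and RFC4 of the replication fork, so that the letters counted can be seen. Each is 80 bases from 5′ to 3′ on the gene's strand, with the motif in capitals; in RFC4 the match is on the other strand and so appears as its reverse complement. UTP4 lies at chr16:69132569-69132648 (plus strand), UTP14A at chrX:129905914-129905993 (plus), MCM3 at chr6:52284743-52284822 (minus) and RFC4 at chr3:186806483-186806562 (minus).
UTP4: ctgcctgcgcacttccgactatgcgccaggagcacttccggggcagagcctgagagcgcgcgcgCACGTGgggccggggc
UTP14A: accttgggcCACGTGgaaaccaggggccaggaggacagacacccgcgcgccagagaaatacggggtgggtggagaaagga
MCM3: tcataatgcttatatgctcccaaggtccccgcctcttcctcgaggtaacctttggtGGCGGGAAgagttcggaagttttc
RFC4: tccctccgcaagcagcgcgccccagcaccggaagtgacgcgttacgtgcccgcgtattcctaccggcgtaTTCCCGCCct

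Fold changes were then set beside these letters. UTP4, with its E-box close to the start, was at 20.1 FPKM in the control and 14.2 FPKM after LSD1 siRNA (log2 fold change -0.48), and UTP14A, with its E-box far upstream, at 10.6 and 7.77 FPKM (-0.40). MCM3 (14.2 and 10.5 FPKM, -0.41) and RFC4 (-0.39) were likewise close to each other. Ribosome biogenesis genes with the E-box had a median of -0.26 and those without it -0.30, and over all members the median was -0.02 with and -0.02 without it. For DNA replication genes the median was -0.16 with and -0.16 without the E2F motif. In the MYC network and nucleotide list the medians were -0.33 in the 10 genes with and -0.17 in the 19 genes without an E-box. A match describes letters in this window and not a bound site.

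Motif shares were not read for the fold-change groups themselves. Promoters were matched for 54 of the 74 higher members (73.0%) and 82 of the 106 lower members (77.4%), under the 80% needed, so that check is void. The same holds for the androgen-induced (39 of 50), inflammation (14 of 20), interferon (40 of 54) and immediate early (19 of 26) lists.

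Other parts of the protein synthesis apparatus differed by less. Transfer RNA synthetase genes had a median of -0.10, with 18 of 23 below 0 and 2 lower past the lowest limit (8.70%, against 7.17% of all members). FARSB, a subunit of the phenylalanine enzyme, was at 29.8 FPKM in the control and 18.7 FPKM after LSD1 siRNA (log2 fold change -0.64), and EEF1E1 was at 19.5 and 14.7 FPKM (-0.38). Of 41 translation factors, 4 were lower (9.76%) and 1 higher (2.44%) past the lowest limit (median -0.08), with EIF3J at -0.43 and EIF3F at 0.43. Mitochondrial ribosomal protein genes were below 0 in 61 of 78 cases (78.2%, against 54.5% of all members), with a median of -0.09. In this list 7 genes were lower past the lowest limit (8.97%, near the 7.17% of all members), led by MRPS23 at 36.5 and 25.3 FPKM (-0.51).

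Cytosolic ribosomal protein genes, whose products are built into ribosomes by the biogenesis factors above, lay near 0. Their median was 0.01 over 76 genes, 36 below and 40 above 0, and RPL21 with its control value of 0 was the only one past the lowest limit. RPS24 was lowest, at 2350 FPKM in the control and 1981 FPKM after LSD1 siRNA (log2 fold change -0.25), and RPS21, at 1519 and 1799 FPKM, was at 0.24. Of the 10 most abundant members, 6 belong to this list. Housekeeping genes had a median of 0.04 and 1 of 31 past the lowest limit, on the lower side.

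Lipid synthesis showed a few lower genes in lists that otherwise lay near 0. Of 27 cholesterol synthesis genes, 6 were lower and none higher past the lowest limit (median -0.09). HMGCS1, an early enzyme of the mevalonate pathway, was at 31.6 FPKM in the control and 21.2 FPKM after LSD1 siRNA (log2 fold change -0.55), and FDFT1, squalene synthase, had a value of -0.54. Of 22 fatty acid synthesis genes, 5 were lower past the lowest limit (median -0.07), among them the elongases ELOVL7 at 27.3 and 17.8 FPKM (-0.59) and ELOVL6 (-0.52) and fatty acid synthase FASN at 181 and 129 FPKM (-0.49).

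Lists of energy metabolism had medians of either sign. Of 22 glycolysis genes, 17 were above 0, 7 were higher and 1 lower past the lowest limit, with a median of 0.15. PFKFB4, which makes the activator of phosphofructokinase, was at 70.1 FPKM in the control and 94.5 FPKM after LSD1 siRNA (log2 fold change 0.43). PFKL, the liver-type phosphofructokinase, had a value of 0.42, while lactate dehydrogenase LDHB was the 1 lower gene, at 247 and 185 FPKM (-0.41). The glycolysis median was 0.28 without genes that share a listed interval or are readthrough genes. Hypoxia genes were above 0 in 21 of 23 cases (median 0.16), with 5 higher and 1 lower past the lowest limit; the collagen prolyl hydroxylases P4HA2 (29.6 and 44.6 FPKM, 0.58) and P4HA1 (0.44) and the repressor BHLHE40 (0.47) were highest. Oxidative phosphorylation genes, by contrast, were below 0 in 54 of 76 cases (71.1%, against 54.5% of all members). Their median was -0.05 and 1 gene, ATP5MC1 (-0.36), was past the lowest limit. Citric acid cycle genes had a median of -0.12, with MPC2 of the pyruvate carrier (-0.46) and fumarase FH (-0.41) lowest. The difference between these pathways was not tested.

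**Figure D5:**
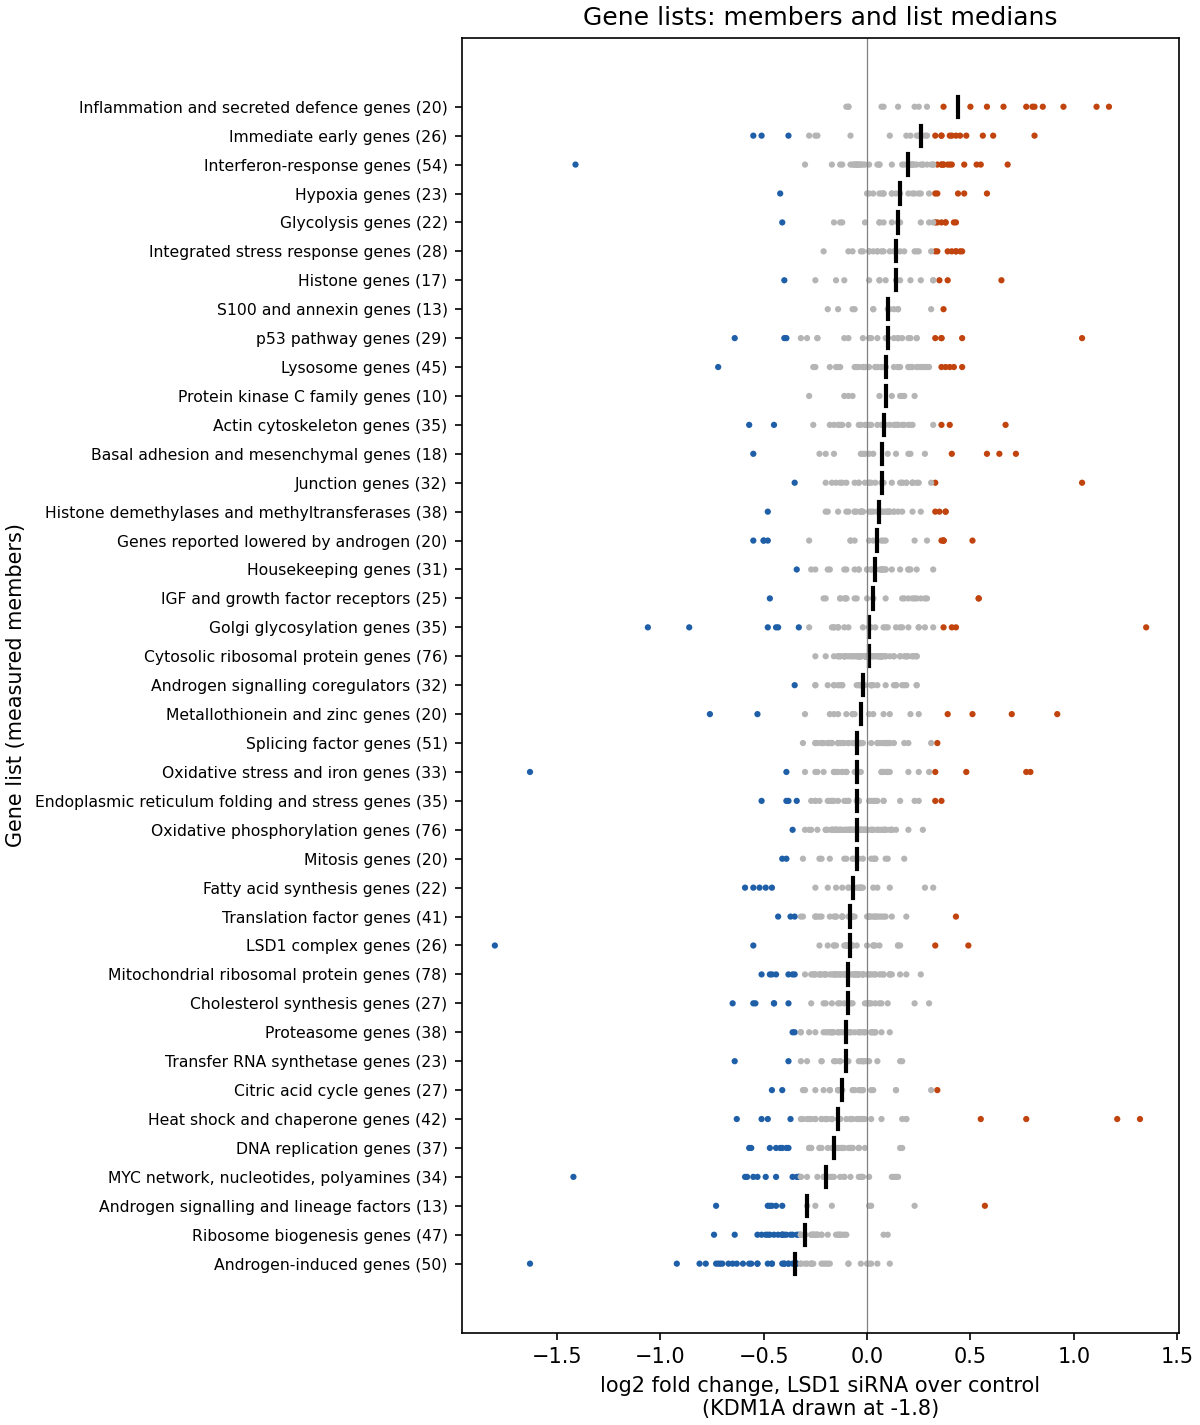
Each row is a gene list with 10 or more members, ordered by its median; the number of measured members stands in parentheses. Points are members by log2 fold change (x axis), orange or blue where past the lowest limit, and black bars are medians, from -0.35 for androgen-induced genes to 0.44 for inflammation and secreted defence genes; RPL21 is left out and KDM1A, at -2.27, is drawn at the edge.

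Inflammation and secreted defence genes had the highest median of the 41 lists, 0.44. Of 20 measured, 17 were above 0, 11 were higher past the lowest limit, 8 by 1.5-fold and none lower past the lowest limit. SLPI, a secreted inhibitor of leukocyte proteases, was at 10.3 FPKM in the control and 19.3 FPKM after LSD1 siRNA (log2 fold change 0.85), and stood next in size to MMP7 (1.17), IL1RN (1.11) and PI3 (0.95). Of the 37 genes in the list, 17 were not members. The median was 0.27 with a minimum of 1 FPKM and 0.18 with no minimum. The 8 immune cell markers summed to 15.3 FPKM in the control and 20.2 FPKM after LSD1 siRNA, mostly from CD68 (log2 fold change 0.52), while 5 of the 8, among them PTPRC, CD3E and TYROBP, stayed under 0.1 FPKM in both libraries. The part of these markers in the result was not tested.

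Immediate early genes, which are induced within minutes of a signal, had 19 of 26 above 0 and a median of 0.26. Of these, 11 were higher past the lowest limit, 2 of them by 1.5-fold, and 3 were lower. DUSP5, a phosphatase of ERK, was at 6.24 FPKM in the control and 11.7 FPKM after LSD1 siRNA (log2 fold change 0.81). IER2 was at 20.5 and 31.7 FPKM (0.61) and CCN1, a matrix protein of the CCN family, at 3.65 and 5.87 FPKM (0.56). CCN1 reached 5 FPKM in the LSD1 siRNA library alone, so its direction follows from the minimum. MYC, also in this list, had the opposite sign (-0.55).

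Interferon-response genes were higher past the lowest limit in 13 of 54 cases and lower in 1, with a median of 0.20. GBP2, a guanylate-binding protein, was at 9.48 FPKM in the control and 15.8 FPKM after LSD1 siRNA (log2 fold change 0.68). APOL1, an apolipoprotein that lyses trypanosomes, was at 12.1 and 18.2 FPKM (0.55), and RSAD2, the antiviral protein viperin, at 23.7 and 34.8 FPKM (0.53). IFI27, at -1.41, was the 1 lower gene and had the largest absolute value of the list. The integrated stress response list, downstream of the factor ATF4, was above 0 in 23 of 28 cases with a median of 0.14, and 8 genes were higher and none lower past the lowest limit. Its highest members were the stress factors DDIT3 (175 and 241 FPKM, 0.46), PPP1R15A (8.42 and 11.9 FPKM, 0.45), ATF3 (0.43) and TRIB3 (0.43).

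Heat shock and chaperone genes held values at both ends. The list median was -0.14, with 33 of 42 below 0, 5 lower and 4 higher past the lowest limit. The 4 higher genes were CLU (1.32), CRYAB (1.21), HSPB8 and HSPB1, small heat shock proteins and clusterin, which bind unfolded proteins without ATP. HSPB8 was at 6.45 FPKM in the control and 11.7 FPKM after LSD1 siRNA (0.77), and HSPB1 at 359 and 525 FPKM (0.55). On the lower side, CCT2 of the TRiC chaperonin was at 136 and 87.9 FPKM (-0.63). All 8 TRiC subunits were below 0, with a median of -0.21. Both subsets were formed after their values had been seen.

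The core of the heat shock element, GAANNTTC, which reads the same on both strands, lay in 8 of 37 promoters of the heat shock and chaperone list (21.6%, 95% Wilson interval 11.4 to 37.2%), against 4.31% of all members. Windows of HSPB8 and HSPB1 are shown because both hold the core and both were higher, while the 8 genes with the core had a median of -0.20 and the 29 without it -0.14. Each window has 80 bases on the gene's plus strand (GRCh38.p14, RefSeq), with the core in capitals, HSPB8 at chr12:119178806-119178885 and HSPB1 at chr7:76302454-76302533.
HSPB8: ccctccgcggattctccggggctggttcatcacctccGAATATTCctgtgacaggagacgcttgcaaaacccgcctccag
HSPB1: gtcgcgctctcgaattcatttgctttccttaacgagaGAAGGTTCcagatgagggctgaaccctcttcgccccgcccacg

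Several lists held single large values with little shift of the whole. Golgi glycosylation genes had a median of 0.01 over 35 genes, with 6 lower and 4 higher past the lowest limit. MAN1A1 (1.35) was the highest, and B4GALT5 (-1.06) and GALNT7, a glycosyltransferase of mucin-type glycans, at 31.5 and 16.9 FPKM (-0.86), the lowest. Metallothionein and zinc genes had a median of -0.03 over 20 genes. The 4 metallothioneins, a subset formed after its values had been seen, were all above 0, among them MT1G at 24.9 and 48.0 FPKM (0.92) and MT1F at 14.6 and 24.3 FPKM (0.70), while the zinc transporters SLC39A10 (30.3 and 17.5 FPKM, -0.76) and SLC30A4 (84.2 and 58.0 FPKM, -0.53) were lower. Metallothionein genes are near-identical copies, so reads could be split between them.

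Oxidative stress and iron genes had a median of -0.05 over 33 genes, with 4 higher and 2 lower past the lowest limit. HMOX1, heme oxygenase, was at 27.5 FPKM in the control and 48.3 FPKM after LSD1 siRNA (log2 fold change 0.79), and SOD2, the mitochondrial superoxide dismutase, at 109 and 188 FPKM (0.77). Of 29 p53 pathway genes, 5 were higher and 4 lower past the lowest limit, with PERP at 1.04 and TP53INP1 at 106 and 67.9 FPKM (-0.64). Lysosome genes had a median of 0.09, with 5 of 45 higher past the lowest limit, among them the cathepsins CTSH (0.46) and CTSB (0.42), and SCARB2, a lysosomal membrane receptor, lower at 120 and 72.1 FPKM (-0.72). Histone genes had a median of 0.14 over 17 genes and H4C8 was highest, at 262 and 412 FPKM (0.65).

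Epithelial and mesenchymal genes gave no single direction. Of 32 junction genes, PERP (1.04) and E-cadherin CDH1, at 183 FPKM in the control and 231 FPKM after LSD1 siRNA (log2 fold change 0.33), were higher past the lowest limit and EPCAM (60.3 and 47.2 FPKM, -0.35) was lower. Of 18 basal adhesion and mesenchymal genes, 4 were higher and 1 lower past the lowest limit. These were LAMB3 (3.18 and 5.90 FPKM, 0.72), ITGA5 (19.3 and 30.6 FPKM, 0.64), VIM (31.1 and 47.0 FPKM, 0.58) and SERPINE2 (6.48 and 8.93 FPKM, 0.41), and ITGAV (64.7 and 43.8 FPKM, -0.55). LAMB3 passed the minimum through the LSD1 siRNA library alone, which fixed its direction. The luminal keratins KRT18 (620 and 461 FPKM, -0.43) and KRT8 (929 and 718 FPKM, -0.37) were lower, as were 9 of the 13 luminal markers, whose summed level was 6066 FPKM in the control and 4809 FPKM after LSD1 siRNA. The list of REST target genes, neuronal genes silenced through CoREST, had 4 of 30 members and all 4 lay between -0.14 and 0.15. Targets under the minimum in both libraries were not members, so these 4 cannot show whether silenced targets differed.

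The remaining lists had medians between -0.10 and 0.10. Androgen signalling coregulators had a median of -0.02 and 1 of 32, the Mediator subunit MED1 (-0.35), past the lowest limit. Among 38 histone demethylases and methyltransferases (median 0.06), the demethylase PHF8 was lower, at 25.3 and 17.8 FPKM (-0.48), and 4 genes were higher past the lowest limit, KDM2A (0.38) and KDM2B (0.38) first. Splicing factors (51 genes, median -0.05) had 1 past the lowest limit and proteasome genes (38 genes, median -0.10) had 3, all lower. Below 0 were 34 of the splicing factors (66.7%) and 29 of the proteasome genes (76.3%), against 54.5% of all members. Endoplasmic reticulum folding and stress genes had a median of -0.05, actin cytoskeleton genes 0.08, growth factor receptor and insulin-like growth factor genes 0.03, and S100 and annexin genes 0.10. No member of the protein kinase C family passed the lowest limit among 10 measured, from PKN2 at -0.28 to PRKCZ at 0.23.

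Values were also laid out by position in the genome. On chromosome 19 the median was 0.06 and 35.2% of 660 members were below 0, with 9 higher and none lower by 1.5-fold. The lowest chromosome medians were -0.09 on chromosome 13 (71.8% of 142 members below 0) and -0.08 on chromosome 4 (69.4% of 320). The 20% of members with the most GC-rich promoters had a median of 0.01 and the other 4 groups of about 20% of members had medians between -0.04 and -0.02. By genomic length, the median was 0.01 in the shortest 20% of members and between -0.04 and -0.01 in the other 4 groups. The part of chromosome, base composition and length in the results was not tested. With each value set against the median of its chromosome, the androgen-induced, ribosome biogenesis and inflammation lists had medians of -0.32, -0.24 and 0.41.

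Adjacent members were compared in the same way. Genes that were not members were skipped, and no limit was set on distance. There were 201 positions next to a gene lower by 1.5-fold, with no overlap of intervals. In 31 of them the neighbour was itself lower past the lowest limit (15.4%, 95% Wilson interval 11.1 to 21.1%), against 7.17% of all members. Next to higher genes the neighbour was higher in 16 of 140 positions (11.4%, 7.16 to 17.8%), against 4.81%. A gene was counted for each such neighbour it had, and both genes of a pair past 1.5-fold were counted. The Wilson intervals treat these positions as independent and do not allow for this. In the 12 non-overlapping pairs of adjacent members that were both past 1.5-fold, both genes had the same sign. The widest gap among these pairs was 3079 kb, between AADAT (-0.73) and GALNT7 (-0.86). PI3 (0.95) and SLPI (0.85) are such a pair on chromosome 20, 75.7 kb apart, and DBI (-0.70) and C2orf76 (-0.69) on chromosome 2 lie 0.245 kb apart. RLN1 (-0.90) and RLN2 (-0.91), relaxin genes, and UGT2B11 (-0.62) and UGT2B28 (-0.62) are near-identical copies whose reads can be split between them. The same holds for the pair of metallothioneins MT1F (0.70) and MT1G (0.92). These pairs were named after their values had been seen.

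LSD1 peaks in LNCaP, a readout the ranking did not use, were compared with these genes over the 9157 members placed on assembled chromosomes. A peak lay within 20 kb of 51 of the 106 lower members (48.1%, 95% Wilson interval 38.8 to 57.5%), of 28 of the 74 higher members (37.8%, 27.6 to 49.2%) and of 42.9% of all members. Both intervals include the share of all members. Median genomic lengths were 31.6 kb for lower, 15.5 kb for higher and 29.2 kb for all placed members, and the part of length was not tested. For H3T6ph, phosphorylation of histone H3 at threonine 6, the shares were 22.6% (15.7 to 31.5%) of lower, 17.6% (10.6 to 27.8%) of higher and 18.5% of all members. Among the 15 lowest members 11 had an LSD1 peak within 20 kb, and among the 15 highest 8 did. Each peak list came from 1 sample.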

How the data were processed

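RNA was measured in 2 LNCaP libraries, made with the Illumina TruSeq v2 RNA kit, per the labels' protocols. That kit keeps no strand, so reads of a gene and of one that overlaps it from the other strand are mixed. The submitters' processing notes name TopHat2 2.0.4, Bowtie2 2.0.0, Cuffdiff 2.0.1, MACS2 and hg19. The authors deposited FPKM per RefSeq accession, with a p-value and a q-value, per the file headers, and a score per peak of unstated scale. Library scaling and annotation: not given in the sources used here. Among 40253 accessions, 38934 (96.7%) matched a symbol in RefSeq (GRCh38.p14) and their FPKM were summed; 37 genes with a failed accession were left out. Log2 fold changes use a pseudocount of 1 FPKM, which understates changes of low genes. The authors' log2 fold change column was not used. No test was run, since there was 1 library per group; fixed sizes of 2-fold, 1.5-fold and 25% higher or 20% lower stand in its place. Depth was estimated from the steps of single-read genes without introns, after taking 204 bases off each length, and all genes checked (42 in the control and 44 in the other library) then held whole fragments to within 0.05. Named genes were KDM1A, the 15 highest and 15 lowest fold changes, from each list at most 4 members by absolute fold change, and the 10 most abundant members. The members and gene lists were chosen with earlier results of these data known. Subsets, motifs and their lists, sequence windows, the position, neighbour, GC and length descriptions and other genes named with values, including the luminal markers, were chosen after values were seen. Some genes that this rule names are not reported here. The 96 members placed on alternate contigs were left out of position and peak counts. Python 3.11.15, numpy 2.4.6, pandas 2.3.3 and matplotlib 3.10.9 were used. The fold calls were also run on simulated counts with planted changes. That simulation held counting error alone and no difference between cultures, so it is no check on the calls made here.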

Additional observations from a re-analysis of the deposited data

How the results depend on the processing

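No paired analysis was possible because each group held 1 library. Of 686 values recomputed under 14 alternatives for counts, list medians and peak shares, 659 stayed within 1.5 times a count, 0.1 of a median or the interval of a share, and none changed sign with a move of that size other than the protein kinase C median. With a pseudocount of 0.1 FPKM, 14 members were higher by 2-fold. A pseudocount of 5 FPKM left 3 higher and 4 lower by 2-fold, 27 and 51 by 1.5-fold, and 246 and 364 past the lowest limit. A minimum of 1 FPKM gave 122 higher by 1.5-fold, 668 higher past the lowest limit and an inflammation median of 0.27. A minimum of 20 FPKM gave 6 lower by 2-fold, 33 higher and 63 lower by 1.5-fold, 218 and 326 past the lowest limit, a growth factor list median of 0.17 and a protein kinase C median of -0.07. With no minimum there were 128 and 744 higher by 1.5-fold and past the lowest limit, and the lineage factor and inflammation medians were -0.06 and 0.18. The most abundant accession in place of the sum gave 22 higher and 31 lower by 2-fold, and 135 and 184 by 1.5-fold. Without shared intervals and readthrough genes, the medians of genes lowered by androgen and of glycolysis genes were 0.16 and 0.28. The cause of these moves was not tested beyond the number of genes each setting admits. For the 195 named genes, 2574 values moved by under 0.3 and 16 by more, 15 of these under another pseudocount. Centring on chromosomes or promoter GC was chosen after seeing the data. Counting error limits single genes near 5 FPKM.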
